A study of Mus musculus with 4 samples.

Results

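The genes described here encode the machinery of oxidative phosphorylation (OXPHOS), and they were measured in immune cells of the inflamed mouse esophagus. They were chosen by symbol from a table of UMI counts (unique molecular identifiers, 1 per captured RNA molecule): mitochondrially encoded subunits (mt-Nd, mt-Co, mt-Cytb, mt-Atp) and nuclear genes named Nduf, Cox4 to Cox8, Uqc or Atp5, without pseudogenes, with 100 or more UMIs over all cells. Of 32285 genes, 99 met the rule: 13 mitochondrially encoded and 86 nuclear. Among the nuclear genes, 45 belong by name to complex I, 11 to complex III, 13 to complex IV and 17 to the ATP synthase, and 11 of the 86 encode assembly factors rather than subunits. Below the limit lay Cox7b2 and Cox8c (0 UMIs), Ndufa4l2 (1), Cox4i2 (2), Cox8b (11) and Cox6a2 (38). The members nearest to it were Atp5s (109), Ndufaf1 (220) and Ndufaf5 (269).

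The animals were 5 wild-type mice and 5 mice with a knock-out of Il20rb, a receptor subunit for cytokines of the IL-20 family. All 10 went through the same model of eosinophilic esophagitis: calcipotriol (MC903, 1 nmol) with ovalbumin on the ear for 14 days, ovalbumin in the drinking water from day 14, ovalbumin by gavage (50 mg) on days 15 and 17, and collection on day 18. Every sample was challenged, so lineages and genotypes were compared within the model only. The labels used here do not state strain, age or the knock-out allele. Live CD45+ cells, each carrying a hashtag antibody of its animal, were pooled and run in 2 wells, and each animal was taken as 1 replicate (wild-type 1 to 5 and knock-out 1 to 5, in hashtag order).

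The respiratory chain passes electrons from NADH and succinate to oxygen and pumps protons across the inner mitochondrial membrane, and the ATP synthase uses that gradient to make ATP. Complexes I, III, IV and V are built from subunits of both genomes, while complex II is wholly nuclear. Heavy-strand mitochondrial genes are transcribed as one long precursor and cut apart, whereas each nuclear gene has its own promoter; many of these promoters are known targets of NRF1, of the ETS factor GABPA and of YY1. Mature neutrophils are known for few mitochondria and a reliance on glycolysis.

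Promoter stretches are shown for 5 nuclear members on which results below turn: 3 broadly expressed genes and 2 isoform genes with a restricted pattern. The letters are the 120 bases that end just before the annotated start in RefSeq GRCm38.p6, 5′ to 3′ on the gene's strand. Capitals mark a match to 1 of 3 motifs searched on both strands: CGCANGCG (the NRF1 core), CCGGAAG (ETS/GABPA) and AAGATGGC (YY1). The stretches are chr15:102671048-102671167 (- strand) for Atp5g2, chr5:115348959-115349078 (- strand) for Cox6a1, chr17:27133892-27134011 (- strand) for Uqcc2, chr7:30184051-30184170 (+ strand) for Cox7a1 and chr7:4753095-4753214 (- strand) for Cox6b2.
Atp5g2: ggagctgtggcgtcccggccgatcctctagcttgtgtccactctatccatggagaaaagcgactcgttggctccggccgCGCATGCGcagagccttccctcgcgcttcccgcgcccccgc
Cox6a1: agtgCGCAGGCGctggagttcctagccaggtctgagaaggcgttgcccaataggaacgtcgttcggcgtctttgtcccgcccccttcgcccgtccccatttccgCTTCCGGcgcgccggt
Uqcc2: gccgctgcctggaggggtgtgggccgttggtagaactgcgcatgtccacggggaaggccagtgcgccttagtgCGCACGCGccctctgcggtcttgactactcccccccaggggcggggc
Cox7a1: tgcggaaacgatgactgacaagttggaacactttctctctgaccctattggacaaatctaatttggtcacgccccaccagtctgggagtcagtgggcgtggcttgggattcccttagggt
Cox6b2: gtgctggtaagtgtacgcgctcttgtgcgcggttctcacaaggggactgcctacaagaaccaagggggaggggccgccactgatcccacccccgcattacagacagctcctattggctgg

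Atp5g2 encodes the c subunit of the proton-driven ring of the ATP synthase, Cox6a1 the broadly used form of a complex IV subunit, and Uqcc2 an assembly factor of complex III. Their stretches hold 1, 2 and 1 matches. Cox7a1, the heart and skeletal muscle form of a complex IV subunit, and Cox6b2, known as a testis form of another, had no match there, which says only that these letters are not in these windows. A RefSeq window (250 bases before to 50 after the start) was matched for 74 of the 86 nuclear members. The NRF1 core was in 27 of them (36.5%) against 9.22% of the 27025 genes in the same table, the ETS/GABPA motif in 16 (21.6% against 9.93%) and the YY1 motif in 12 (16.2% against 3.19%). Any of the 3 was in 45 (60.8% against 19.5%). A match is a description of the sequence and not a binding site.

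The table holds 6054 cells, 271 to 897 per animal, and 35317007 UMIs, 1805883 to 5666994 per animal. Il20rb gave 16 UMIs in all, 10 from the wild-type and 6 from the knock-out mice, so its level cannot check the genotype labels. The cells had been limited to under 10% mitochondrial UMIs before deposit (highest 9.99%, median 2.02%), which caps every mitochondrial share below. Cell classes were rebuilt from clusters that left the members out, and are called "-like" for that reason; 656 cells stayed unnamed, 14.3% ± 6.76 (SD) of knock-out and 10.2% ± 3.14 of wild-type cells per animal. Between the wells 2 cell barcodes were shared.

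The 99 members took 4.62% of all UMIs. The mitochondrially encoded genes gave 2.19% and the nuclear ones 2.44%, a ratio of 0.898. Of the mitochondrial UMIs 77.6% came from 5 genes: mt-Co1 (176465 UMIs), mt-Co2 (128711) and mt-Co3 (115646) of complex IV, mt-Atp6 (115716) of the ATP synthase and mt-Cytb (62843) of complex III. Among nuclear members Atp5e, a central stalk subunit of the ATP synthase, gave the most UMIs (47852), before Cox8a (37169) and Cox7c (34196), both small complex IV subunits. Libraries of 3′ ends yield about 1 read position per transcript, so no length was divided out, and UMIs of different genes are given here as yields and not ranked as levels. The genes mt-Atp8 and mt-Atp6, and mt-Nd4l and mt-Nd4, share transcripts and overlap. The gene mt-Nd6 lies on the opposite strand to its neighbours, and the labels do not say whether counting used strand. UMIs of these genes may therefore be split uncertainly, as may those of nuclear members that have near-identical processed pseudogenes.

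Among named classes with 7 or more animals, T-like, macrophage-like and monocyte-like cells had the highest ratios of mitochondrial to nuclear OXPHOS UMIs. Cycling, neutrophil-like and cDC1-like cells had the lowest. Over all cells of an animal the mitochondrial genes took 2.21% ± 0.241 (SD, n = 10 animals) of UMIs and the nuclear genes 2.44% ± 0.149, a ratio of 0.905 ± 0.0767. In classes with at least 10 cells per animal, the ratio of mitochondrial to nuclear UMIs was 1.12 ± 0.132 in T-like cells (n = 9), 1.02 ± 0.23 in macrophage-like cells (n = 10) and 0.952 ± 0.132 in monocyte-like cells (n = 10). It was 0.918 ± 0.0912 in ILC2-like cells (group 2 innate lymphoid cells, n = 9) and 0.81 ± 0.0576 in cDC2-like cells (type 2 conventional dendritic cells, n = 10). The ratio was 0.718 ± 0.0494 in cycling cells (n = 7), 0.699 ± 0.189 in neutrophil-like cells (n = 7) and 0.684 ± 0.0985 in cDC1-like cells (type 1 conventional dendritic cells, n = 9). In the unnamed cells it was 1.08 ± 0.133 (n = 10), between the T-like and macrophage-like values.

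Within animals the order of several classes repeated. The ratio was lower in cDC2-like than in monocyte-like cells in 10 of 10 animals and lower in cDC1-like than in cDC2-like cells in 9 of 9. It was higher in T-like than in cDC2-like cells in 9 of 9 and higher in T-like than in ILC2-like cells in 7 of 8. T-like and macrophage-like cells had no fixed order: the T-like ratio was above the macrophage-like one in 5 of 9 animals. In the same classes the nuclear share was highest in cycling cells (2.93% ± 0.155) and cDC1-like cells (2.75% ± 0.21), and lowest in neutrophil-like cells (0.837% ± 0.329). Cycling and cDC1-like cells also had the most UMIs per cell (medians 11400 and 8170). The nuclear share was higher in cDC1-like than in cDC2-like cells in 6 of 9 animals. Among cells of 5000 to 10000 UMIs it was 2.6% ± 0.1 (n = 6) in cDC1-like, 2.61% ± 0.0994 (n = 10) in cDC2-like and 2.71% ± 0.185 (n = 3) in cycling cells. Smaller classes rest on few animals. Migratory dendritic-like cells had a ratio of 0.978 ± 0.407 (n = 5, 0.55 to 1.52), above that of both other dendritic classes on average. Within animals it was above the cDC2-like ratio in 3 of 5 and above the cDC1-like ratio in 4 of 4. The ratio was 1.83 in the B-like cells of 1 animal, and 0.46 and 0.649 in the NK-like cells of 2 animals, whose nuclear shares were 2.6% and 2.94%.

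**Figure D1:**
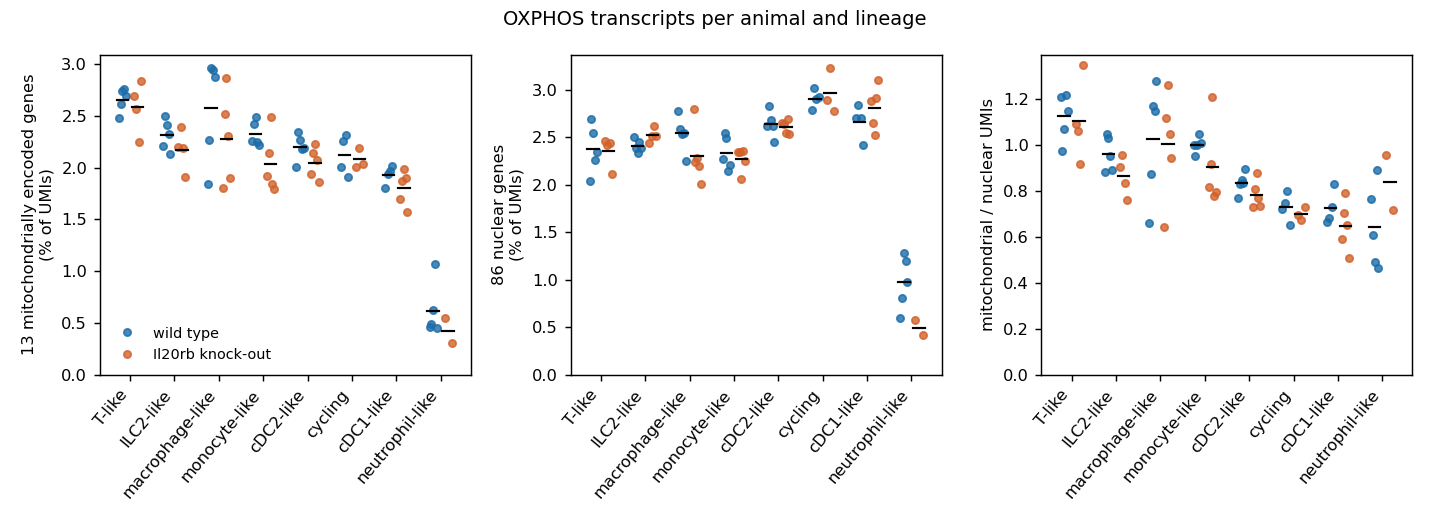
Share of UMIs from the 13 mitochondrially encoded and the 86 nuclear OXPHOS genes (% of all UMIs of an animal's cells in the class) and their ratio. Each point is 1 animal with at least 10 cells of the class, bars are means by genotype, and the neutrophil-like animals lie below every other class in both shares.

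Macrophage-like cells had a wide spread of this ratio, from 0.643 in knock-out animal 1 and 0.662 in wild-type animal 1 to 1.28. Their clusters differed among themselves: the cluster led by Lyve1, a marker of resident macrophages, had a ratio of 1.57 (2 animals), that led by Retnla 1.32 (9 animals), that led by Gpnmb and Spp1 0.936 (7 animals) and that led by Ccl8 0.61 (2 animals). In knock-out animal 1, 54.9% of macrophage-like cells lay in the Gpnmb and Spp1 cluster and 13.1% in the Ccl8 cluster, and in wild-type animal 1 61.9% and 7.14%. Wild-type animal 2 had 62.7% in the Gpnmb and Spp1 cluster and 0.0% in the Ccl8 cluster. Knock-out animal 5 had 36.2% in the Ccl8 cluster and a ratio of 0.946. Macrophage-like cells of wild-type animal 1 and knock-out animal 1 also had the most UMIs per cell. Their medians were 10167 and 8384.5, against 3772.5 to 6725 in the other animals. Among cells of 5000 to 10000 UMIs the ratio was 1.19 in wild-type animal 1 (12 cells) and 0.785 in knock-out animal 1 (21 cells). How far cluster makeup or UMIs per cell account for the spread was not tested.

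The balance also moved with the UMIs found per cell. In cDC2-like cells the ratio was 1.72 ± 0.286 (n = 9 animals) among cells of 2000 to 5000 UMIs, 0.79 ± 0.068 (n = 10) at 5000 to 10000 and 0.571 ± 0.0904 (n = 4) above that, and it was higher in the lowest of these ranges than in the next in 9 of 9 animals. Monocyte-like cells went from 2.79 ± 0.913 (n = 5) at 1000 to 2000 UMIs through 1.33 ± 0.374 (n = 9) and 0.809 ± 0.102 (n = 8) to 0.689 ± 0.0627 (n = 3). In both classes the mitochondrial share fell and, up to 10000 UMIs, the nuclear share rose along this range. Macrophage-like cells went the same way, with the ratio higher at 2000 to 5000 than at 5000 to 10000 UMIs in 8 of 9 animals. Neutrophil-like cells went the other way, from 0.465 ± 0.129 (n = 7) at 1000 to 2000 UMIs to 1.18 ± 0.501 (n = 4) at 2000 to 5000, in 4 of 4 animals.

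At a matched range of 2000 to 5000 UMIs the cDC2-like ratio was above the monocyte-like one in 7 of 8 animals, the reverse of the order over all cells. The T-like ratio in that range was 1.24 ± 0.133 (n = 7), and it was above the cDC2-like one in 1 of 6 animals. It was above the macrophage-like one in 1 of 6 and the monocyte-like one in 2 of 7, but above the ILC2-like one in 6 of 7. The median UMIs per cell were 6910 ± 355 in cDC2-like, 5260 ± 755 in monocyte-like, 3160 ± 341 in T-like and 1610 ± 280 in neutrophil-like cells. Orders of the ratio between classes therefore hold for the cells as captured and not at every depth.

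**Figure D2:**
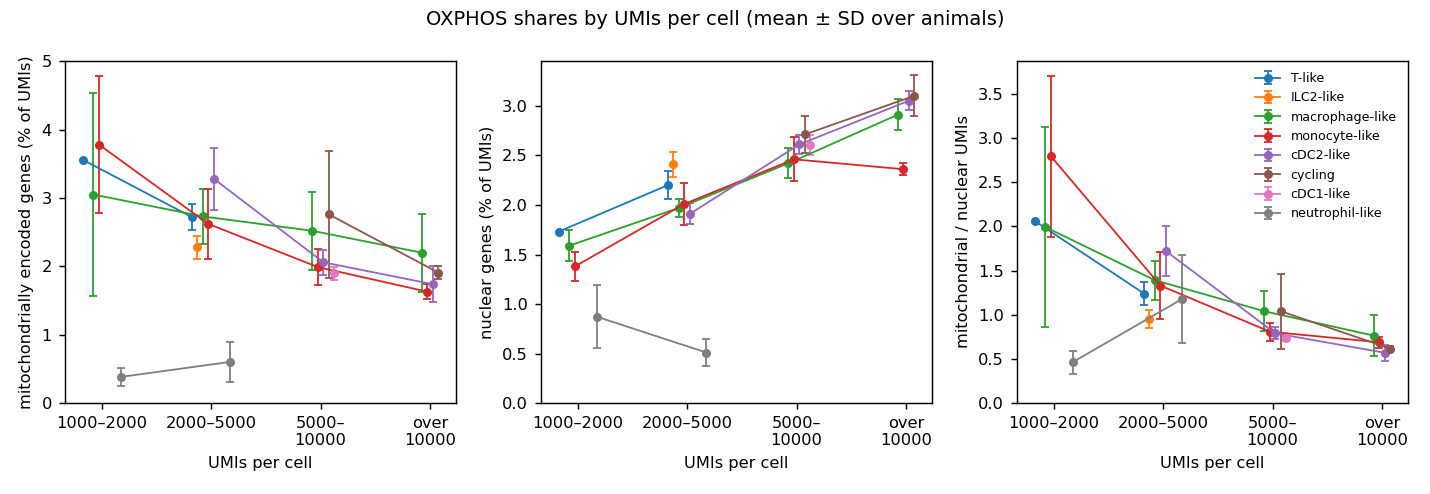
Shares of UMIs from mitochondrially encoded and nuclear OXPHOS genes (%) and their ratio in cells grouped by UMIs per cell. Points are means over animals with at least 10 cells in the range, bars are SDs (the T-like point at 1000 to 2000 UMIs is 1 animal, without a bar), and the ratio falls with depth in the cDC2-like, monocyte-like, macrophage-like and cycling cells but not in neutrophil-like cells.

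The ratio differed between the wells as well. It was 0.819 ± 0.083 in well 1 and 0.996 ± 0.0843 in well 2, higher in well 2 in 10 of 10 animals. The mitochondrial share was 2.02% in well 1 and 2.42% in well 2, again higher in 10 of 10, while the nuclear share was 2.46% and 2.43%. The cells of every animal were in both wells, so this difference does not divide the genotypes, and its cause was not tested.

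Neutrophil-like cells held far less OXPHOS RNA of both genomes than monocyte-like cells of the same animals. The mitochondrial share was 0.565% ± 0.244 and the nuclear share 0.837% ± 0.329 (n = 7; wild-type 1 to 5, knock-out 1 and 5), each below the monocyte-like share in 7 of 7 animals. In the paired fit (edgeR's quasi-likelihood test on summed counts with the animal as a term, Benjamini-Hochberg adjusted p under 0.05), 12 of 12 mitochondrial and 72 of 78 nuclear genes tested were lower and none higher. Of all genes tested in that comparison, 40.6% were lower and 22.2% higher. The median log2 change was -2.12 for the mitochondrial and -2.04 for the nuclear members, against -0.51 for all genes. Both wells gave this pattern, and at 2000 to 5000 UMIs per cell 75 of the 80 called genes that could be tested were called lower again.

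For mt-Co1, the catalytic core of complex IV, neutrophil-like cells had 1190, 1330, 1650, 2150 and 1210 CPM (the gene's UMIs scaled to a fixed total per sample) in wild-type animals 1 to 5, and 1470 and 619 CPM in knock-out animals 1 and 5. Monocyte-like cells had 4390 to 6280 CPM (median 5520, n = 10). The ranges of mt-Co1 did not overlap, and its log2 change was -2.11 ± 0.30 (SE; adjusted p = 1.54e-11).

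By role, the fall took in 7 of 7 core subunits of complex I, 28 of 30 other complex I subunits, 8 of 8 complex III subunits, 9 of 11 complex IV subunits, 16 of 16 ATP synthase subunits and 4 of 6 assembly factors. The 3 genes that encode the same c subunit were all lower. Atp5g2 was 51.1 ± 49.1 CPM against 403 ± 67.6 (log2 -3.39 ± 0.37, adjusted p = 6.48e-19). Atp5g1 was 26.1 ± 23.6 against 368 ± 70.5 CPM (log2 -3.35), and Atp5g3 was 42.7 ± 34.5 against 264 ± 46.7 CPM (log2 -2.87). Ndufc2, a membrane-arm subunit of complex I, was 8.49 ± 12.7 against 179 ± 12.6 CPM (log2 -3.94 ± 0.45). Very few molecules stood behind the lowest genes: Ndufa5 had 2, Ndufa9 2 and Ndufaf4 1 UMIs of 1196083 in the neutrophil-like cells of the 7 animals, against 778, 363 and 142 of 9041575 in their monocyte-like cells. The smallest falls among called members were those of Ndufs7 (log2 -0.85), Atp5l (-0.85) and Atp5j (-0.94).

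Cox8a did not follow. It was 655, 930, 1850, 1320 and 1140 CPM in the neutrophil-like cells of wild-type animals 1 to 5 and 712 and 661 CPM in those of knock-out animals 1 and 5, against 1060 ± 86 CPM in monocyte-like cells of the same animals. Cox8a was higher in neutrophil-like cells in 3 animals and lower in 4 (log2 -0.19 ± 0.28, adjusted p = 0.573), and at 2000 to 5000 UMIs its change was 0.30 ± 0.30. The other members that did not pass were Ndufa7 (log2 -0.33), Ndufb9 (-0.58), Uqcc3 (-0.59), Cox7a2l (-0.76, adjusted p = 0.0519) and Ndufaf7 (0.65).

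Lists around OXPHOS moved with it in the neutrophil-like cells. All 4 subunits of complex II were lower (Sdhc by log2 -2.92, Sdhb -1.60), as were Cycs, the electron carrier cytochrome c (-3.01), 9 of 11 genes of the tricarboxylic acid cycle and 57 of 68 of the mitochondrial ribosome. The cytosolic ribosome also fell, in 80 of 81 genes with a median of -2.82, so low values were not particular to mitochondrial genes. Of 16 glycolysis and lactate genes 4 were higher and 8 lower, near the 22.2% higher and 40.6% lower of all genes in this fit. Single genes of that list went both ways: the glucose transporter Slc2a3 rose by 5.62 and the lactate exporter Slc16a3 by 1.92, while Pgk1 had -1.79. The dissociation response list (immediate early and heat shock genes) was higher in 7 of 10 genes and lower in 2 (median 0.97). Its part was not tested. Neutrophil-like clusters differed in level: the cluster led by Il4, Il1r2 and Hdc had a nuclear share of 1.2% (3 animals), and those led by S100a9 and by Csf1 had 0.59% and 0.515% (4 animals each).

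**Figure D3:**
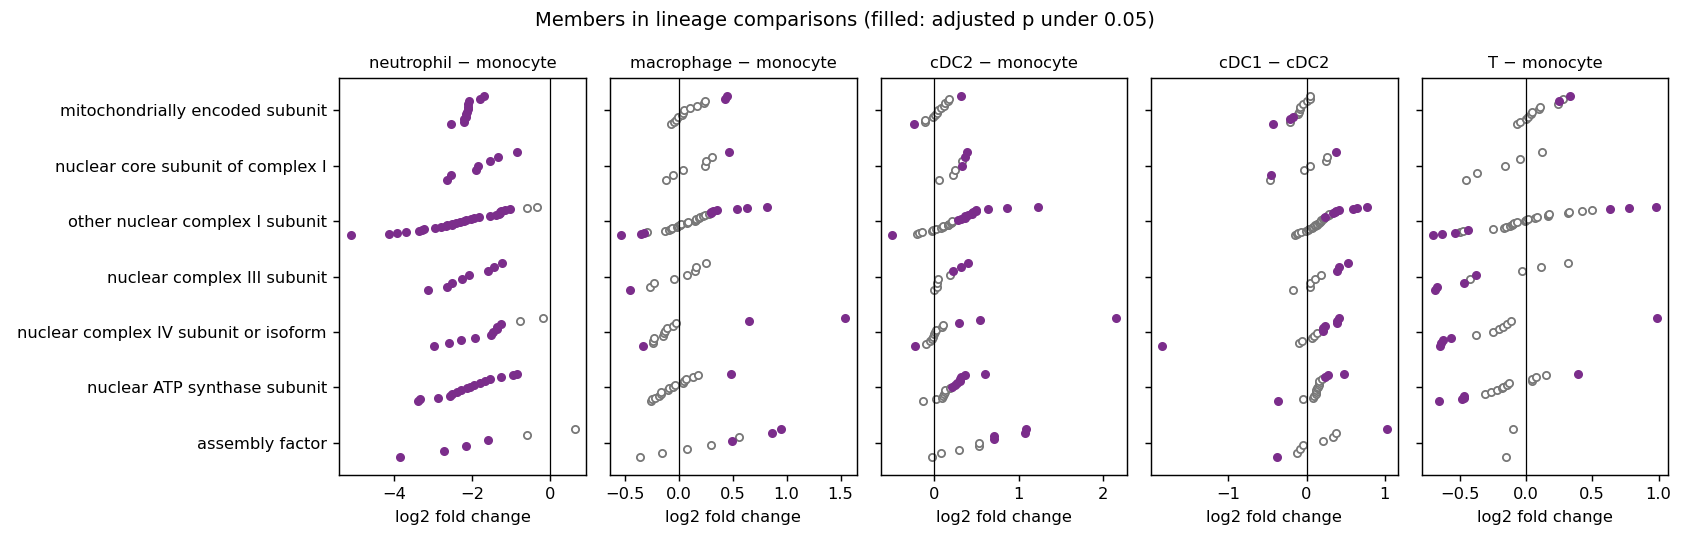
Log2 fold changes of single OXPHOS genes between lineages, by the role of the product; filled points have an adjusted p under 0.05 (edgeR), open points do not, and each panel has its own scale. Nearly all points of the neutrophil panel are filled and below 0, while the other panels hold filled points on both sides.

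Over all depths, dendritic cells of the cDC2-like class had more nuclear OXPHOS RNA than monocyte-like cells, without a like rise of the mitochondrial genes. Of 83 nuclear members 35 were higher and 2 lower, and of 13 mitochondrial ones 1 was higher (mt-Nd2) and 1 lower (mt-Co1). Among all genes 23.5% were higher and 23.1% lower. The median log2 change was 0.21 for nuclear members, 0.04 for mitochondrial ones and 0.04 for all genes. The higher genes included 19 of 44 of complex I, 5 of 10 of complex III, 3 of 13 of complex IV and 8 of 16 of the ATP synthase.

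Ndufa6, an accessory subunit that holds the mitochondrial acyl carrier protein in complex I, had 431 to 588 CPM in cDC2-like cells (median 474, n = 10) and 122 to 261 CPM (median 206) in monocyte-like cells. The ranges of Ndufa6 did not overlap, and its change was 1.23 ± 0.10 on the log2 scale (adjusted p = 6.8e-11). Uqcc2 was 316 ± 44.1 against 147 ± 43.8 CPM (log2 1.08 ± 0.11), and Ndufa5, a subunit of the arm that reduces ubiquinone, 153 ± 20.3 against 78.9 ± 11.7 CPM (0.86 ± 0.12), each higher in 10 of 10 animals. The lower genes were Ndufs4, a subunit of the electron-input arm (log2 -0.51 ± 0.12), Cox4i1, the regulatory subunit of complex IV (-0.23 ± 0.08), and mt-Co1 (-0.24 ± 0.06).

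Depth changed much of this list, and the shares turned in the lower range. At 2000 to 5000 UMIs the nuclear share was 1.91% ± 0.106 in cDC2-like and 2.01% ± 0.216 in monocyte-like cells. It was higher in cDC2-like cells in 2 of 8 animals. The mitochondrial share there was 3.28% ± 0.45 against 2.62% ± 0.507, higher in cDC2-like cells in 7 of 8. At 5000 to 10000 UMIs the nuclear share was 2.61% against 2.46% and the mitochondrial share 2.06% against 1.99%. In cells of 2000 to 5000 UMIs only 17 members passed, 9 mitochondrial genes among those higher, and of 29 genes higher before and testable there 6 were called higher again and 4 had the opposite sign. In cells of 5000 to 10000 UMIs 18 were higher and 9 lower, and 16 of the 36 were called higher again. Ndufa6 (0.89 and 1.19 in the lower and the upper range), Uqcc2 (1.12 and 1.03), Ndufa5 (1.04 and 0.51), mt-Nd2 (0.91 and 0.36) and Ndufb4 were called higher in both.

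Other lists in the same fit are set against the 23.5% higher and 23.1% lower of all genes. The cytosolic ribosome was higher in 60 of 80 genes (median 0.25, none lower) and the mitochondrial ribosome in 23 of 76 (median 0.27, 1 lower), medians close to that of the nuclear members. Of 13 tricarboxylic acid cycle genes 6 were higher and none lower, among them Idh3a (log2 0.55 ± 0.21), and of 16 glycolysis and lactate genes 9 were lower and 2 higher. Pkm, the pyruvate kinase of these cells, had a log2 change of -1.21 ± 0.09 and Slc16a3 one of -1.73 ± 0.16, and Hif1a, which drives glycolytic genes at low oxygen, one of -1.49 ± 0.16. Hif1a was the 1 gene lower of 9 regulators of mitochondrial biogenesis, of which 2 were higher. Complex II was higher in 1 of 4 genes (Sdhd). The dissociation response list (immediate early and heat shock genes) was lower in 6 of 10 genes and higher in 2, and its part in these changes was not tested.

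Macrophage-like against monocyte-like cells gave a mixed picture, with 14 nuclear members higher and 5 lower of 81, and mt-Nd1 and mt-Nd2 higher of 13. Among all genes 18.7% were higher and 19.2% lower, so the share of higher members (16 of 94) was near the background while lower members (5 of 94) were fewer. Ndufa5 had 131 to 199 CPM in macrophage-like cells (median 155) and 52.2 to 92.5 CPM (median 80.8) in monocyte-like cells, without overlap (log2 0.82 ± 0.13, adjusted p = 6.06e-06). The assembly factors Ndufaf2 of complex I (0.95 ± 0.22) and Uqcc3 of complex III (0.86 ± 0.16) and the core complex I subunit Ndufs7 (0.46 ± 0.13) were also higher. The gene mt-Nd2 was 852 ± 231 against 589 ± 172 CPM (0.45 ± 0.11), and mt-Nd1 1170 ± 234 against 809 ± 120 CPM (0.43 ± 0.11), each higher in 10 of 10 animals.

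Lower in macrophage-like cells were Ndufs4 (-0.53 ± 0.15), Uqcrfs1, the iron-sulfur protein of complex III (-0.45 ± 0.12), Ndufa4, named for complex I and now known as part of complex IV (-0.35 ± 0.11), Cox8a (-0.33 ± 0.11) and Ndufa3 (-0.32 ± 0.13). Of the 16 members called higher, 11 of 14 testable ones were called higher again at 2000 to 5000 UMIs and 10 of 16 at 5000 to 10000. Scaling by total UMIs instead of TMM (trimmed mean of M-values) raised the median of all genes from 0.02 to 0.14 and gave 28 members higher and 4 lower. Cycs had a log2 change of -1.03 ± 0.14, Slc2a1, a glucose transporter, one of -1.22 ± 0.20 and Hif1a one of -1.24 ± 0.14. Of 16 glycolysis and lactate genes 2 were higher and 5 lower (median -0.18). Hif1a was the 1 gene called of 7 regulators of mitochondrial biogenesis (median -0.01). The dissociation response was lower in 7 of 10 genes and higher in 1 (median -0.83). The cytosolic ribosome was lower in 29 of 80 and higher in 2. The part of these lists was not tested.

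Between the dendritic classes, cDC1-like cells had 22 nuclear members higher and 4 lower of 81 than cDC2-like cells, and 3 of 12 mitochondrial genes lower (mt-Nd1, mt-Nd2 and mt-Nd4). The fit had 9 animals, since wild-type animal 1 had 8 cDC1-like cells. Among all genes 13.8% were higher and 15.2% lower. The split turned with the scaling: by total UMIs, which moved the median of all genes from 0.01 to -0.13, 10 members were higher and 14 lower. Ndufb11, a membrane-arm subunit of complex I, was 417 ± 74.4 CPM in cDC1-like and 265 ± 22.7 CPM in cDC2-like cells of the 9 animals, and its change was 0.78 ± 0.10 (adjusted p = 1.68e-09), higher in 9 of 9. Ndufa4 (0.65 ± 0.09) and Cox6c, a complex IV subunit (0.40 ± 0.07), were higher in 9 of 9 animals too, and mt-Nd2 was 499 ± 81.4 against 735 ± 50.9 CPM (-0.43 ± 0.08), lower in 9 of 9. Ndufb11, Ndufa4 and Cox6c stayed higher by total UMIs. In the same fit the cytosolic ribosome was higher in 72 of 80 genes (median 0.36) and the dissociation response lower in 10 of 10 (median -1.74); their part was not tested. DESeq2 called 18 members, wells 1 and 2 alone 4 and 5, and without knock-out animal 2 the number was 19 in place of 29.

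T-like cells against monocyte-like cells (9 animals, without knock-out animal 4) had 5 nuclear members higher and 16 lower of 71, and 2 of 12 mitochondrial genes higher (mt-Cytb and mt-Atp6). All genes were higher in 30.8% and lower in 32.8%. This direction did not hold under other settings: by total UMIs, with a median of all genes of 0.19 in place of 0.01, 19 members were higher and 9 lower. Without the animal as a term 29 were higher and 5 lower, with no filter on low counts 3 and 38, and at 2000 to 5000 UMIs 15 and 1. Genes called higher in T-like cells at each of TMM scaling, total UMIs and 2000 to 5000 UMIs were Cox7a2l, Ndufa5, Ndufv3, Ndufb11 and Atp5g2. Cox7a2l, which joins complexes III and IV into supercomplexes, had 168 to 264 CPM in T-like cells (median 211) and 40.5 to 188 CPM (median 83.3) in monocyte-like cells; knock-out animal 2 held the highest monocyte-like value, and the change was 0.99 ± 0.20 (adjusted p = 0.000161), higher in 9 of 9 animals. Cox6a1 had 266 ± 83.1 CPM in T-like and 353 ± 52.7 CPM in monocyte-like cells, lower in 8 of 9 animals (-0.62 ± 0.19, adjusted p = 0.00567). It was not called lower at 2000 to 5000 UMIs. Cox4i1, at 552 ± 99.2 against 754 ± 49 CPM (-0.64 ± 0.14), was lower in 9 of 9 and was the 1 member called lower in that range. In the T-like fit the dissociation response was lower in 10 of 10 genes (median -1.89). The cytosolic ribosome was higher in 57 of 79 and lower in 2 (median 0.38), and the part of either list was not tested. The comparisons of neutrophil-like, cDC2-like, macrophage-like and T-like cells share the monocyte-like cells, so gene changes that recur between them are not independent.

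ILC2-like and T-like cells, compared in 8 animals, had 3 members that passed of 78 tested: mt-Cytb (log2 -0.43 ± 0.11) and mt-Atp6 (-0.34 ± 0.10) were lower in ILC2-like cells in 8 of 8 animals and Atp5j2, an ATP synthase subunit, was higher in 7 of 8 (0.45 ± 0.14). Among all genes 12.3% were higher and 11.4% lower. The dissociation response was higher in ILC2-like cells in 8 of 10 genes (median 1.04). Erythroid markers, 3 of 5 with UMIs (Hbb-bt and Alas2 at 0), summed to 86.3 to 474 CPM (median 315) in ILC2-like cells of 9 animals. In T-like cells 1 of 5 had UMIs, summing to 0 to 8.32 CPM. The part of either list was not tested. Without wild-type animal 2 there were 6 calls, without knock-out animal 1 there were 5, and in well 2 alone there were 0. The call of mt-Atp6 was lost without wild-type animal 5 (adjusted p = 0.0565).

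A pair of isoform genes of complex IV had restricted patterns: Cox7a1 stood highest in macrophage-like cells, and Cox6b2 in cDC2-like and cycling cells. Cox7a1 (chr7:30184171-30186030, GRCm38.p6) had 51.7, 27.5, 20.6, 29.4 and 27.9 CPM in macrophage-like cells of wild-type animals 1 to 5, and 38.6, 29.6, 22.5, 26.4 and 44.2 CPM in knock-out animals 1 to 5. Monocyte-like cells had 0 to 22.6 CPM of Cox7a1 (median 9.01), so that macrophage-like cells were higher in 10 of 10 animals (log2 1.54 ± 0.23, adjusted p = 4.88e-06). Pooled over cells, Cox7a1 was 17.9 CPM in cycling, 17.2 in migratory dendritic-like cells, with 0 UMIs in neutrophil-like cells. Per animal it was 11.1 ± 6.02 CPM in cDC2-like cells (n = 10). Since Cox7a1 is a muscle form, striated muscle markers were measured beside it: 7 of 8 had UMIs in both classes (Myh2 was at 0), summing to 31 to 98.8 CPM (median 63.5) in macrophage-like and 0 to 48.2 CPM (median 20.2) in monocyte-like cells. Tnni2, 1 of the 8, was at 285 CPM in cDC1-like cells, which had no UMIs of Acta1, Myh2 or Myh4. Without it, a choice made after its values were seen, the sums were 26.9 to 69.1 CPM (median 48.7) and 0 to 37.1 CPM (median 10). Their part in the result was not tested.

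Cox6b2 (chr7:4751792-4753094) stood highest in cDC2-like cells, at 35, 31.5, 39.3, 29.8 and 31.7 CPM in wild-type and 19.9, 45, 23.5, 31.9 and 39.1 CPM in knock-out animals 1 to 5. Monocyte-like cells had 0 to 10.4 CPM of Cox6b2 (median 6.78), without overlap, and the change was 2.15 ± 0.23 (adjusted p = 5.59e-09). At 5000 to 10000 UMIs it was 1.97 ± 0.27. Cox6b2 was lower in cDC1-like than in cDC2-like cells in 9 of 9 animals (log2 -1.85 ± 0.41, adjusted p = 0.000186), 5 of the 9 cDC1-like samples having 0 UMIs. Pooled over cells it was 26.1 CPM in cycling cells and 1.16 in T-like cells. Of the 38 UMIs of Cox6a2, the muscle form of Cox6a1, 19 were in macrophage-like cells and 8 in 2 plasma-like cells.

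**Figure D4:**
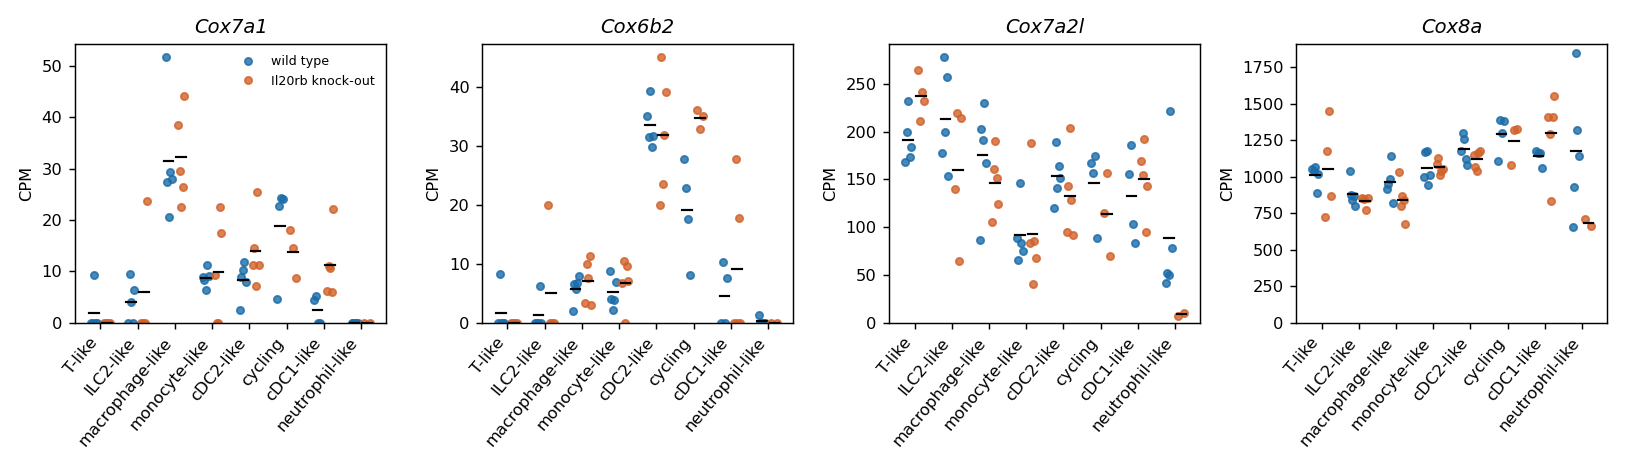
Levels (CPM, raw counts scaled by total UMIs) of Cox7a1, Cox6b2, Cox7a2l and Cox8a, each point 1 animal with at least 10 cells of the class and each bar a genotype mean. Cox7a1 stands highest in macrophage-like and Cox6b2 in cDC2-like and cycling cells, whereas Cox8a in neutrophil-like cells spans the levels of the other classes.

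Between the genotypes no member passed the test in any of the 8 fits (all CD45+ cells and 7 classes) by edgeR or DESeq2. At an unadjusted p under 0.05 edgeR had 9 of 99 members in all cells, 4 in ILC2-like, 0 in T-like, 1 in cDC1-like, 2 in cDC2-like, 7 in monocyte-like, 0 in macrophage-like and 4 in cycling cells. At the same threshold stood 689 of 10175 genes in all cells, 148 of 1547 in ILC2-like, 90 of 1118 in T-like, 117 of 1943 in cDC1-like, 249 of 5924 in cDC2-like, 673 of 5286 in monocyte-like, 225 of 5409 in macrophage-like and 138 of 3947 in cycling cells. Few genes of any kind passed: 0.0393% of those tested in all cells, 0.259% in ILC2-like, 0.0% in T-like, 0.103% in cDC1-like, 0.0844% in cDC2-like, 0.0946% in monocyte-like, 0.037% in macrophage-like and 0.0253% in cycling cells. ILC2-like cells had 5 wild-type and 4 knock-out animals, T-like 5 and 4, cDC1-like 4 and 5, and cycling cells 4 and 3.

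The mitochondrial genes leaned lower in knock-out animals without passing. Their median log2 change was -0.08 in all cells, -0.18 in monocyte-like, -0.15 in macrophage-like and -0.11 in cDC2-like cells, while the nuclear members had 0.09, 0.00, -0.10 and 0.00. The ratio over all cells was 0.954 ± 0.0481 in wild-type (0.898 to 1.01) and 0.856 ± 0.0704 in knock-out animals (0.774 to 0.941), with overlap. Within well 1 it was 0.805 to 0.926 against 0.684 to 0.913, and within well 2 0.991 to 1.1 against 0.866 to 1.06, overlapping in both. The median UMIs per cell were 4780 ± 913 for wild-type against 5730 ± 379 for knock-out animals over all cells. Within classes, wild-type and knock-out means were 5530 and 5000 in monocyte-like, 6940 and 6880 in cDC2-like and 3000 and 3360 in T-like cells. The mean ratios there were 1.0 and 0.903, 0.835 and 0.784, and 1.13 and 1.11. Neutrophil-like cells, with the fewest UMIs, numbered 12 to 317 per wild-type and 1 to 70 per knock-out animal. Within most classes the ratio was lower in cells with more UMIs, and the part of depth or class makeup was not tested. Among cells of 2000 to 5000 UMIs the mitochondrial share was 2.72% ± 0.432 in wild-type and 2.69% ± 0.377 in knock-outs, where over all depths it was 2.31% and 2.12%. At that depth the ratio was 1.42 ± 0.0946 against 1.34 ± 0.185 over all cells. It was higher in the knock-outs for T-like (1.41, n = 2, against 1.18, n = 5) and cDC2-like cells (1.75 against 1.69). It was lower for monocyte-like (1.1 against 1.51) and macrophage-like cells (1.27 against 1.53), with overlapping ranges in each of these but T-like cells. At 5000 to 10000 UMIs the monocyte-like ratio was 0.685 to 0.715 in knock-out animals 1, 4 and 5. Wild-type animals had 0.774 to 0.919, without overlap. In well 1 the monocyte-like ratio was 0.675 to 0.827 in knock-outs (n = 4) and 0.883 to 1.04 in wild-type animals, without overlap. In well 2 it was 0.886 to 0.993 against 0.974 to 1.13, and over all depths 0.777 to 1.21 against 0.951 to 1.05, with overlap. The cDC2-like and macrophage-like ranges overlapped at 5000 to 10000 UMIs.

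Over all cells the lowest p-values among members were those of mt-Nd6 and mt-Nd5, both of complex I. The proton-pumping subunit mt-Nd5 had 395, 449, 491, 492 and 452 CPM in wild-type animals 1 to 5, against 364, 415, 379, 379 and 289 CPM in the knock-outs. Wild-type animal 1 lay below knock-out animal 2, and the change was -0.26 ± 0.08 (adjusted p = 0.401). The antisense-lying mt-Nd6 had 14.2, 14.5, 15.6, 17.6 and 17.7 CPM in wild-type and 9.53, 13.6, 12.2, 13 and 9.22 CPM in knock-out animals. The groups did not overlap for mt-Nd6, but its change of -0.42 ± 0.12 did not pass (adjusted p = 0.401). In monocyte-like cells mt-Nd5 was 506 ± 61 in wild-type and 368 ± 98.4 CPM in knock-out animals (-0.50 ± 0.15, adjusted p = 0.203) and mt-Cytb changed by -0.35 ± 0.11 (adjusted p = 0.207). In ILC2-like cells Ndufc2 had 95.9 to 163 CPM in wild-type mice and 191 to 299 CPM in the knock-outs, without overlap, but its log2 change of 0.82 ± 0.25 did not pass either (adjusted p = 0.202).

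**Figure D5:**
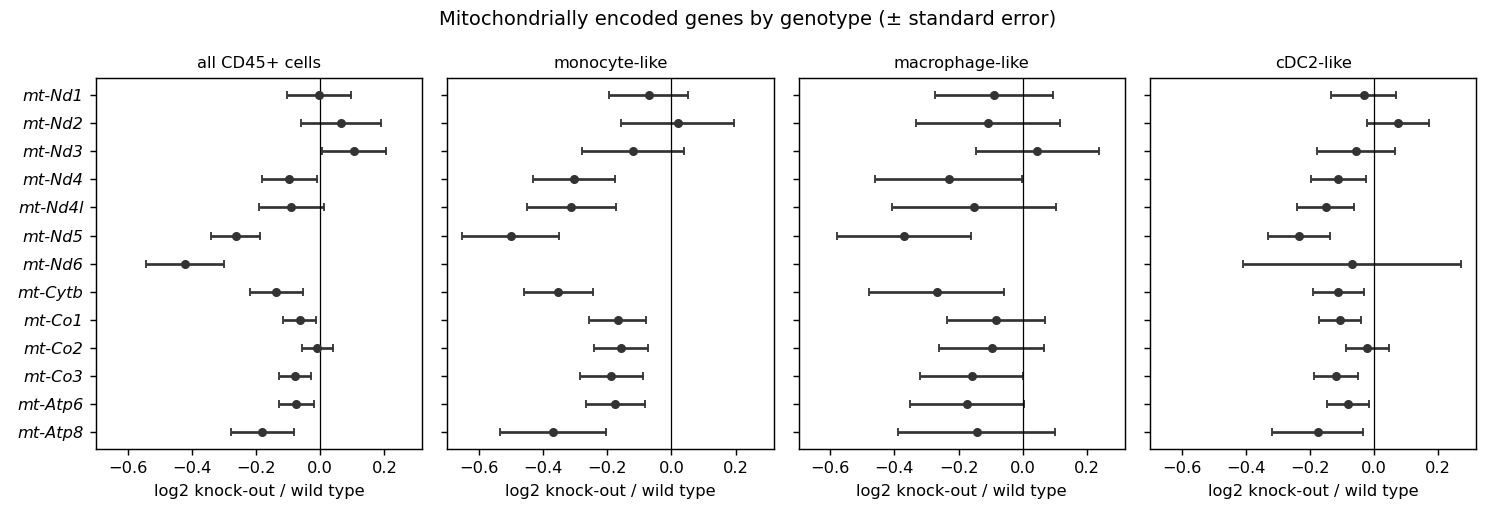
Log2 fold change (knock-out over wild type, edgeR) of the 13 mitochondrially encoded genes in all CD45+ cells and in the 3 most abundant myeloid classes, with standard errors; mt-Nd6 was not tested where too few UMIs were found. Most points lie below 0, with mt-Nd5 at -0.50 in monocyte-like cells, and none passed the adjusted test.

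No gene's genotype difference was called different between cDC2-like and macrophage-like cells. In the interaction fit 0.0% of 7698 genes passed, by edgeR and by DESeq2 among members as well, and 1 member and 249 genes in all had an unadjusted p under 0.05. The lists around OXPHOS had no call by genotype in any class, except that Rpl29 of the cytosolic ribosome was lower in knock-out animals in 6 of the 8 fits.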

How the data were processed

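Single immune cells of 10 hashtagged mice were measured by 3′ single-cell RNA-seq in 2 wells. The authors deposited raw UMI counts per gene and cell, and the submitters' processing notes name Cell Ranger 6.0.1, R 4.0.5 and mm10 without stating which step each served. How hashtags were called, which annotation release served and whether strand was used is not stated by the labels. The deposited counts were already filtered: a cell held 1000 to 52182 UMIs, no fewer than 501 genes, and mitochondrial UMIs up to 9.99%. Symbols were matched by Ensembl ID to a table of GRCm38.p6 (32158 matched, 127 not, 52 shared a symbol and kept their ID).

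Cells were clustered with scanpy 1.11.5 (Leiden, resolution 2, 2000 variable genes, 30 components, 15 neighbours) without the members and without mitochondrial and ribosomal protein genes. A cluster of the 38 was named where at least 3 markers of a type were raised by at least 1 on the log2 scale with 20 CPM added, and 5 stayed unnamed. Scrublet called 3 cells (0.0496%), which is too few to be a working call, so no doublets were removed. Raw counts were summed per animal and class (at least 10 cells) and tested with edgeR 4.0.16 (quasi-likelihood, robust, TMM, filterByExpr) in R 4.3.3, with Benjamini-Hochberg adjustment over all genes tested and 0.05 as threshold. Lineage comparisons had the animal as a term, since both classes came from the same mouse. Genotype fits had none, because the numbers 1 to 5 only give the hashtag order. The animals are the replicates. CPM and shares were computed from the summed raw counts. Pooled CPM are given without intervals and show no spread between animals.

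Alternatives were DESeq2 1.42.0, other scaling and filters, each well, each animal left out, no replicate block, stricter cell filters, other clustering, and ranges of UMIs per cell (the last chosen after seeing the data). The script was tested on simulated data. Members and lists were chosen with earlier results of these data known. Genes were named by a rule: all mitochondrial members, set examples by role, the isoform genes with known tissue use, the members nearest to 100 UMIs and, in each fit, up to 5 called members with the largest change in each direction that moved the same way in every animal or, with none called, the 3 with the lowest p. Other genes named were chosen after their values were seen.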

Additional observations from a re-analysis of the deposited data

Results flagged for a closer look

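Among knock-out animals, the nuclear share of T-like cells was lowest in animal 5, at 2.11% of UMIs from 11 cells. The other 3 knock-out animals had 2.42% to 2.46%. Wild-type animals spanned 2.04% to 2.69%, a range that holds the value of knock-out animal 5. The mitochondrial share of neutrophil-like cells was highest in wild-type animal 4, at 1.07% from 12 cells, against 0.453% to 0.626% in the other 4 wild-type animals. Of 48 groups examined for a sample far from the rest, these 2 had one, and about 1 in 20 groups has one by chance. Ndufb1-ps, which the rule leaves out for its pseudogene symbol, gave 31561 UMIs (0.0894% of all UMIs).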

How the results depend on the processing

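Counts of members called between lineages moved by over 1.5 times under these settings. By total UMIs, 32 were called for macrophage-like and 5 for ILC2-like cells. Without a filter on low counts, 23 were called for cDC2-like and 41 for T-like cells. DESeq2 called 18 for cDC1-like cells. In well 1 and well 2, the numbers were 4 and 5 for cDC1-like, 6 and 0 for ILC2-like, and 15 and 9 for T-like cells. Under 5% mitochondrial UMIs, 1 remained for ILC2-like cells. At 2000 to 5000 UMIs there were 17 for cDC2-like and 5 for ILC2-like cells, and at 5000 to 10000 UMIs 11 for cDC1-like cells. Leaving out single animals gave 2 to 6 for ILC2-like and 19 to 26 for cDC1-like cells. With no replicate block (the animal not paired across classes) there were 6 for ILC2-like cells, while the other counts stayed within 1.5 times: 25 for macrophage-like, 42 for cDC2-like, 26 for cDC1-like, 82 for neutrophil-like and 34 for T-like cells. The cause was not tested. No genotype fit called a member under any alternative run.

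The ratio moved by more than 1 SD over all cells in well 1 (0.819), well 2 (0.996), under 5% mitochondrial UMIs (0.826) and at 2000 to 5000 UMIs (1.38). It did so for ILC2-like cells in the wells (0.81 and 1.11), for cDC2-like cells in the wells (0.718 and 0.902) and at 2000 to 5000 UMIs (1.72), for monocyte-like cells at 2000 to 5000 (1.33) and 5000 to 10000 UMIs (0.809), and for macrophage-like cells at 2000 to 5000 UMIs (1.39). For neutrophil-like cells it was 1.18 at 2000 to 5000 UMIs and 0.338 as a median over cells. For cycling cells it was 0.797 in well 2, 0.664 under 5% mitochondrial UMIs, 0.774 with coarser clusters and 1.04 at 5000 to 10000 UMIs.

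Of 9920 alternatives for 497 values of named genes, 9573 kept direction and call, 184 gained and 151 lost the call, and 12 turned. In cDC2-like cells at 2000 to 5000 UMIs mt-Co1 was 0.26, mt-Co2 0.43 and mt-Nd5 0.45. In cDC1-like cells Cox8a was -0.02 in well 1 and mt-Co2 -0.12 by total UMIs. In T-like cells Cox8a was 0.47 at 2000 to 5000 UMIs, mt-Atp6 -0.09 and mt-Cytb -0.01 without a filter, mt-Co1 0.20, mt-Co2 0.26 and mt-Co3 0.23 with no replicate block, and mt-Co2 0.18 by total UMIs. Neutrophil-like, T-like and ILC2-like cells had few UMIs per cell (medians 1610, 3160 and 3350), which limits what could be tested in them.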
